A study of Mus musculus with 18 samples.

Results

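Messenger RNA levels of 9 cytoskeletal and filament genes of smooth muscle were measured in 2 mouse mammary carcinoma lines. The genes were chosen by name, with earlier results of these data known, and taken by their Ensembl entries. They make up 9 of 32286 entries in the count table. All 9 passed the filter on low counts, as did 17841 entries in all. They comprised Lmod1 (leiomodin 1), Cald1 (caldesmon), Smtn (smoothelin), Synpo2 (synaptopodin 2), Nexn (nexilin), Palld (palladin), Des (desmin), Synm (synemin) and Svil (supervillin). The series asked how binding of MRTFA to SRF bears on the stiffness of cancer cells. The lines, AT-3 and E0771, carried the doxycycline-inducible retroviral vector pRetroX holding wild-type MRTFA, holding Y238A MRTFA, which the labels call deficient in SRF binding, or holding no insert (empty vector). Every culture in the 6 groups, empty vector included, had received 2 µg/ml doxycycline for 48 h, and no group without doxycycline was analysed here. Each group had 3 libraries, 18 in all. The labels do not say whether a line is 1 clone or a pool of transduced cells, nor that the 3 libraries came from separate cultures, so p-values measure the spread between these libraries, which may be technical.

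MRTFA (myocardin-related transcription factor A) is a coactivator that unpolymerised actin monomers hold in the cytoplasm. When monomers are used up by filament assembly it enters the nucleus and works with SRF, the serum response factor, which binds DNA at a short AT-rich motif called the CArG box. Many genes of the contractile apparatus of smooth muscle are known SRF targets. The 9 genes described here encode proteins that start, cover, bundle and anchor actin filaments, and the intermediate filaments that tie those bundles to dense bodies and to the cell membrane. In mammary tissue such proteins are best known from the contractile myoepithelial cells that surround the ducts and from vascular smooth muscle.

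Library totals lay between 81265466 and 115260128 counts. Levels are given in CPM, the usual counts-per-million scale, with library totals corrected by TMM scaling, which sets the bulk of genes equal between libraries. The MRTFA construct entry averaged 5433 CPM in AT-3 wild-type libraries, 2104 CPM in AT-3 Y238A libraries and 0.0160 CPM in AT-3 empty vector libraries. In E0771 the construct averaged 761 CPM with wild-type MRTFA, 320 CPM with Y238A and 0.0736 CPM with empty vector. Both constructs were thus far more abundant in AT-3, and in either line wild-type MRTFA transcripts exceeded those of Y238A, so construct and dose cannot be told apart. Of 6 epithelial markers, AT-3 libraries summed to 13.4 to 16.6 CPM with wild-type MRTFA, 12.8 to 17.8 CPM with Y238A and 8.64 to 8.91 CPM with empty vector, with Krt8 at a mean of 0.0573 CPM with empty vector and Epcam under 1 CPM in each group mean. In E0771 the sums were 570 to 683 CPM with wild-type MRTFA, 377 to 402 CPM with Y238A and 305 to 330.0 CPM with empty vector, nearly all of it Krt8, so they were highest where the 9 genes were, and Krt18 was under 1 CPM there too. With wild-type MRTFA in AT-3, Krt8 (log2 fold change 7.42 ± 0.25, SE, adjusted p = 2.32e-13) and the basal keratin gene Krt5 (4.45 ± 1.42, SE, adjusted p = 0.00918, at a mean of 0.192 CPM) were called higher, and Krt14, also basal, lower (-1.19 ± 0.32, SE, adjusted p = 0.00356). The part of epithelial transcripts in the levels of the 9 genes was not tested. The labelled epithelial origin was therefore faint in AT-3 at the RNA level. The 4 skeletal myogenic regulators summed to at most 0.293 CPM in any library. In bulk RNA, a change in the number of cells and a change in RNA per cell cannot be told apart.

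Some libraries held low levels of transcripts typical of another group. For 32 genes above 10 CPM on average in AT-3 wild-type libraries and under 0.02 CPM in AT-3 empty vector libraries, the median share of the wild-type level found in Y238A libraries was 1.27% in replicate 1, 0.265% in replicate 2 and 0.110% in replicate 3. A further 240 genes had a mean over 20 CPM and at least 10 CPM in every AT-3 library, with a median under 0.3 CPM in E0771. Their median level, as a share of the AT-3 group with the same construct, was 0.508% in wild-type replicate 2, 0.269% in Y238A replicate 1 and 1.35% in empty vector replicate 2 of E0771. The values this could reach most are those of Lmod1 in AT-3, high with wild-type MRTFA and near 1 CPM otherwise. Lmod1 values are given with and without the 4 libraries with the highest shares (AT-3 Y238A replicate 1 and the 3 E0771 libraries). In E0771 the shares correspond to 0.00677 CPM of Lmod1 in Y238A replicate 1, where 1.51 CPM was measured. They correspond to 0.0162 CPM in empty vector replicate 2, where 0.989 CPM was measured, and to 2.26 CPM of 122 CPM in wild-type replicate 2. Shares from AT-3 groups with another construct were not measured in E0771. The source of these low levels was not tested.

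The upstream sequences of the genes were read from RefSeq promoter windows on GRCm38.p6, which run from 250 bases before to 50 bases after a transcription start. Windows were found for 7 of the 9 genes, 10 windows in all, and each was searched for the CArG box, a motif of 10 letters that reads alike on both strands. No window held an exact CArG box. With 1 letter off, 4 of the 10 windows held a match, which is 40% of them, beside 21.1% of all 32851 windows in the table. The windows with a match are printed here over their 250 bases before the start because they show where a match lay in genes that wild-type MRTFA raised. They are written 5′ to 3′ on the gene's strand, with the matches in capitals.
Lmod1, chr1:135324563-135324812, plus strand: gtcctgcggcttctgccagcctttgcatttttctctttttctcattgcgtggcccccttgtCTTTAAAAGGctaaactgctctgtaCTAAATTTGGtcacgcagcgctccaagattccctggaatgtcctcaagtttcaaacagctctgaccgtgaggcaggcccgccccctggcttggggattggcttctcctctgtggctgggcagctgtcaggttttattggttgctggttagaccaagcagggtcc
Cald1, chr6:34598254-34598503, plus strand: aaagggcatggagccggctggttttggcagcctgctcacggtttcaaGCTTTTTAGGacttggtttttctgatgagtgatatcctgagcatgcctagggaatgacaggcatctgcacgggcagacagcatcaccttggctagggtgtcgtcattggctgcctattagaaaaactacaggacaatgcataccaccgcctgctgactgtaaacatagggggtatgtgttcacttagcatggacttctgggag
Palld, chr8:61902708-61902957, minus strand: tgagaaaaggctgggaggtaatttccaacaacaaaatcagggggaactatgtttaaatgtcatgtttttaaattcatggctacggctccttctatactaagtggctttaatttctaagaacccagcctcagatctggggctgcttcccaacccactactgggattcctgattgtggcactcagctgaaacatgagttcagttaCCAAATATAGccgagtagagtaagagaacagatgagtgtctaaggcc
Synm, chr7:67759743-67759992, minus strand: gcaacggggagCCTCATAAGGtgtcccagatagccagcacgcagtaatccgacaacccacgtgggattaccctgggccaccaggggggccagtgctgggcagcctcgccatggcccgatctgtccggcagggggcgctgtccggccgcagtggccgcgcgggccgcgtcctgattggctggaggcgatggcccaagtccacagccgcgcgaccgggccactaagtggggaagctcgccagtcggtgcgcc
The matches began 189 and 164 bases before the start in Lmod1, 203 bases before it in Cald1, 47 in Palld and 239 in Synm. Lmod1 was the gene with more than 1 match. For scale, the window of Srf, a gene long known to be its own target, held 2 exact CArG boxes, a form found in 1.63% of all windows. These matches are letters in a window and say nothing of binding in these cells.

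Wild-type MRTFA raised all 9 genes in both lines. Against empty vector, 9 of 9 were called higher in AT-3, beside 36.4% of the genes tested, and 9 of 9 were called higher in E0771, beside 11.2%. In all 9 the wild-type libraries also lay above the empty vector libraries without overlap, beside 39.5% of genes in AT-3 and 16.5% in E0771. Because the 9 genes were chosen with earlier results of these data known, these shares give scale and are no independent test. A call is an adjusted p under 0.05 from edgeR's quasi-likelihood test with Benjamini-Hochberg adjustment over all 17841 genes. The median log2 fold change of the 9 was 2.39 in AT-3, beside 0.07 over all genes, and 1.27 in E0771, beside -0.05 over all genes. The sizes were very unequal: Lmod1 rose 371-fold in AT-3 and 139.9-fold in E0771, while Smtn and Svil rose less than 2-fold in either line. Both counts of 9 were the same in each alternative analysis. The smallest changes in AT-3 depended in size on scaling: with library totals in place of TMM, the median over all genes moved by -0.14, and Smtn stood at 0.26, Svil at 0.39 and Cald1 at 0.50 on the log2 scale, all still called.

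**Figure D1:**
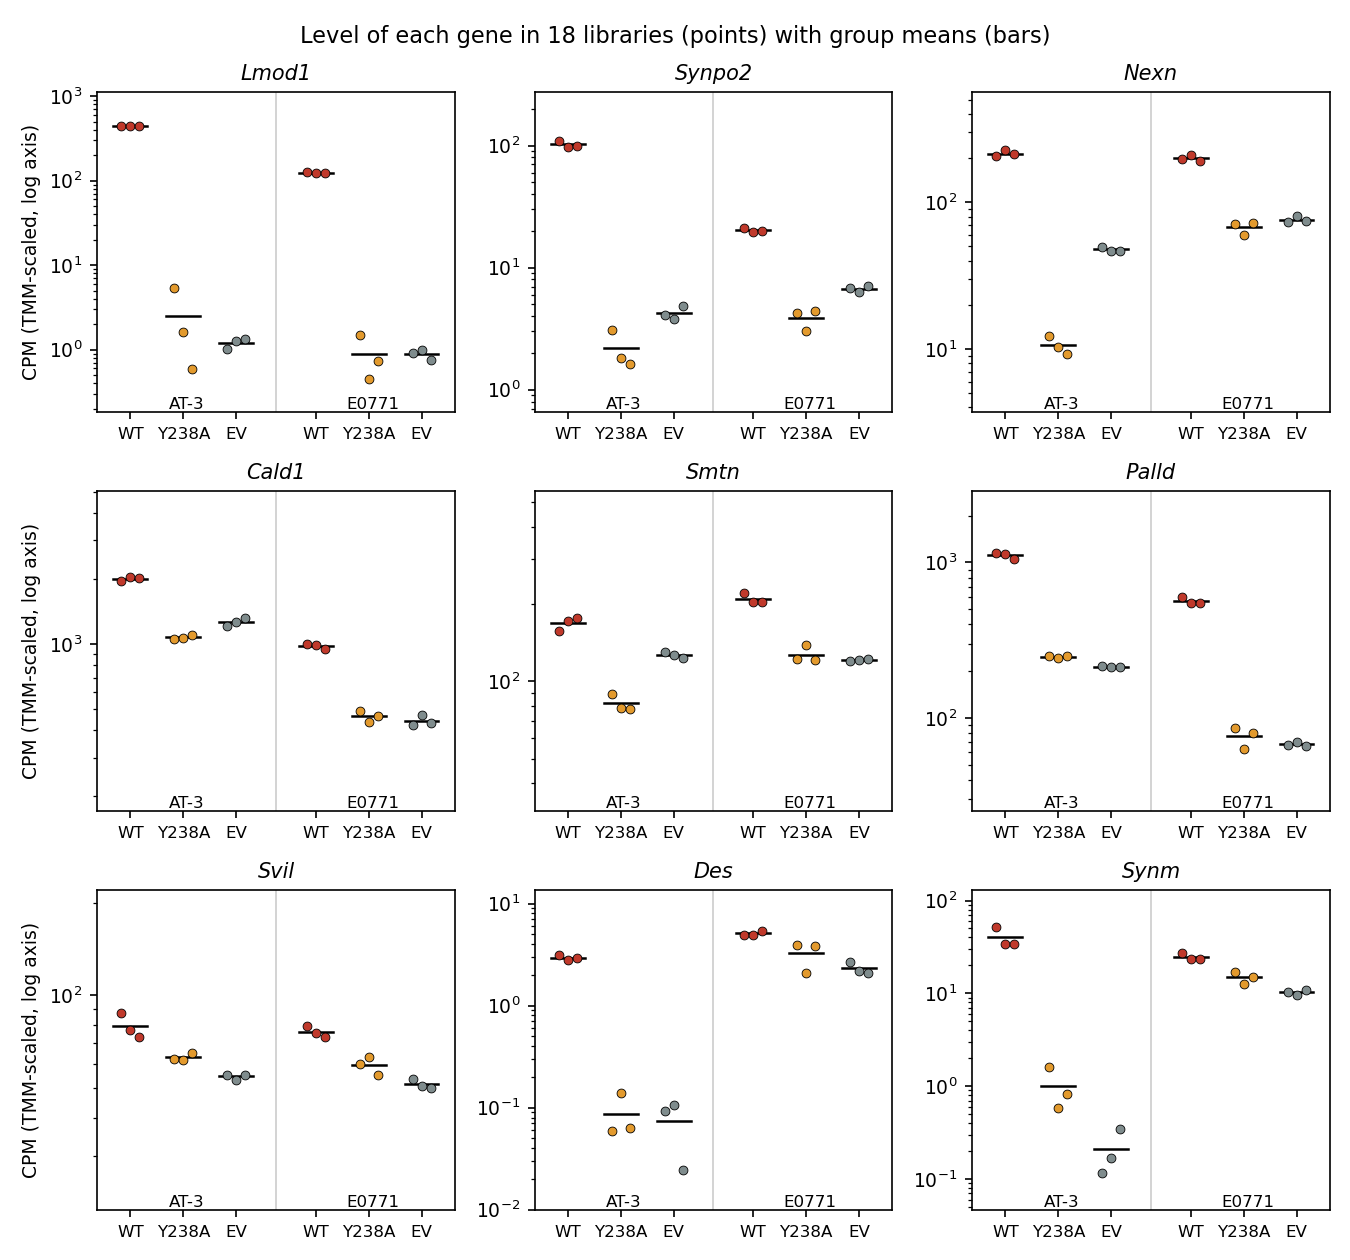
Level of each of the 9 genes in all 18 libraries, in CPM on a log axis, with a point per library and a bar for the mean of 3 libraries. Wild-type MRTFA (WT), Y238A and empty vector (EV) run from left to right within AT-3 and within E0771. The wild-type points lie above the empty vector points in every panel, and the gap is widest for Lmod1.

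Y238A MRTFA did not raise the 9 genes as a set. In AT-3 it raised 3 genes (Synm, Palld and Svil), where 21.4% of all genes were called higher, and lowered 4 (Nexn, Synpo2, Smtn and Cald1), where 22.2% were called lower. In E0771 it raised Svil, where 5.41% of genes were called higher, and lowered Synpo2, where 6.64% were called lower, and the other 7 were not called. Set directly against Y238A, wild-type MRTFA gave higher levels of all 9 genes in AT-3, where 34.8% of genes were called higher. In E0771 it gave higher levels of 8, where 12.7% were, with Des as the exception. The largest of these log2 differences after that of Lmod1 were in AT-3, with 5.55 ± 0.19 for Synpo2, 5.30 ± 0.30 for Synm, 5.05 ± 0.34 for Des and 4.34 ± 0.09 for Nexn (SE). In E0771 they were 2.89 ± 0.08 for Palld and 2.38 ± 0.17 for Synpo2 (SE). The comparisons of wild-type and Y238A MRTFA with empty vector use the same empty vector libraries.

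**Figure D2:**
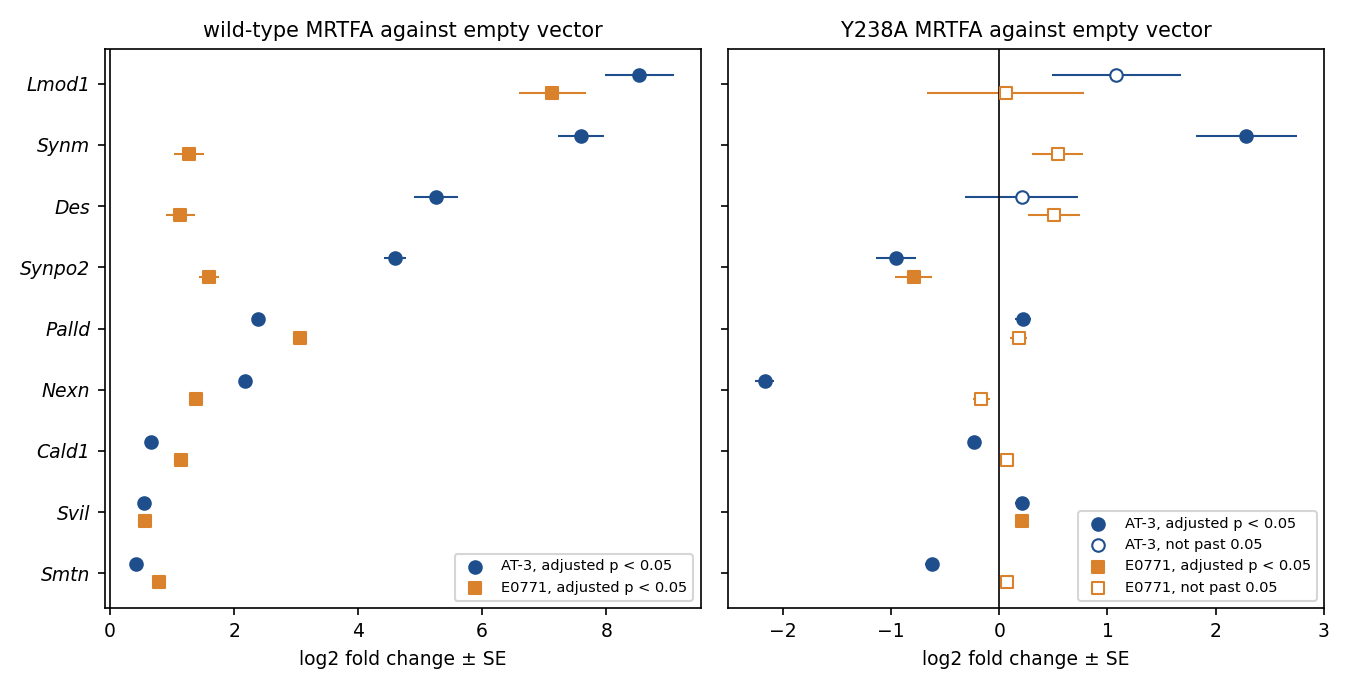
Log2 fold change against empty vector for wild-type MRTFA (left panel) and Y238A MRTFA (right panel), with bars for the standard error. Circles are AT-3 and squares E0771, and filled symbols passed an adjusted p of 0.05. All 18 symbols of the left panel are filled and above 0, from 0.41 for Smtn to 8.54 for Lmod1 in AT-3, while the right panel runs from -2.17 for Nexn to 2.28 for Synm in AT-3.

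Leiomodin 1, encoded by Lmod1 (ENSMUSG00000048096, chromosome 1 at 135324807-135368065, plus strand, GRCm38), starts new actin filaments in smooth muscle cells. In AT-3, Lmod1 measured 439, 448 and 447 CPM with wild-type MRTFA, 5.33, 1.63 and 0.587 CPM with Y238A, and 1.01, 1.25 and 1.34 CPM with empty vector. In E0771, Lmod1 measured 126, 122 and 124 CPM with wild-type MRTFA, 1.51, 0.456 and 0.733 CPM with Y238A, and 0.905, 0.989 and 0.764 CPM with empty vector. The gene was thus nearly silent in both lines without wild-type MRTFA and among the tightest measurements with it, with a coefficient of variation of 1.09% in AT-3 and 1.60% in E0771. The log2 fold change of wild-type MRTFA against empty vector was 8.54 ± 0.55 (SE, adjusted p = 1.27e-08) in AT-3 and 7.13 ± 0.54 (SE, adjusted p = 5.32e-07) in E0771. Without the 4 libraries they were 8.53 and 7.22. The values over all libraries placed Lmod1 325th and 87th from the top of 17841 genes. The difference of the effects, AT-3 minus E0771, was 1.41 with a 95% interval of -0.34 to 3.15 (adjusted p = 0.176). It was called, at 1.40, without AT-3 Y238A replicate 1 (adjusted p = 0.0220) and, at 1.31, without the 4 libraries that held the most transcripts of other groups (adjusted p = 0.0124).

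The Y238A values of Lmod1 in AT-3 spread widely, with a coefficient of variation of 99.1%, and overlapped those of empty vector. The log2 fold change was 1.08 ± 0.60 (SE, adjusted p = 0.171), and it became -0.10 without replicate 1 (adjusted p = 0.918) and 1.54 without replicate 3 (adjusted p = 0.0171). The percentages held of the 32 wild-type genes, a set that does not include Lmod1, correspond to 5.65, 1.18 and 0.491 CPM of Lmod1 in Y238A replicates 1 to 3. These stood beside measured levels of 5.33, 1.63 and 0.587 CPM. For the other low genes the same percentages gave less than was measured: in replicate 1, Synpo2 had 3.08 CPM beside 1.30, Nexn 12.2 CPM beside 2.73 and Synm 1.63 CPM beside 0.508. In E0771 the Lmod1 change with Y238A was 0.06 ± 0.73 (SE, adjusted p = 1), with a 95% interval of -1.52 to 1.64, and -0.50 without the 4 libraries (adjusted p = 0.565). With wild-type MRTFA set against Y238A, Lmod1 stood 7.45 ± 0.51 higher in AT-3 and 7.07 ± 0.54 higher in E0771 on the log2 scale (SE, adjusted p = 2.36e-08 and 4.54e-07). Without the 4 libraries these differences were 8.63 in AT-3 and 7.72 in E0771. Leaving out replicate 1 of Y238A alone gave 8.63 and 7.71.

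**Figure D3:**
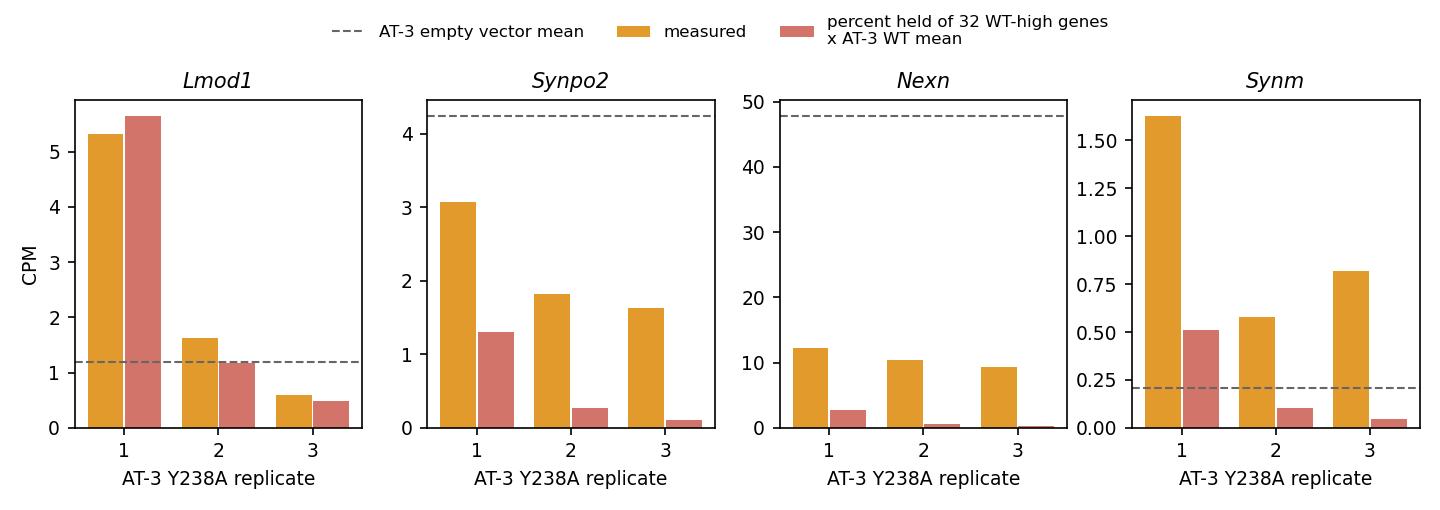
Levels of Lmod1, Synpo2, Nexn and Synm in AT-3 Y238A replicates 1 to 3 in CPM: orange bars are measured, red bars are the percent held of 32 wild-type-high genes times the AT-3 wild-type mean, and dashed lines are the AT-3 empty vector means. The paired bars are close for Lmod1, at 5.33 against 5.65 CPM in replicate 1, and the measured bar is the taller one in all 3 replicates of the other genes.

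Caldesmon, encoded by Cald1 (ENSMUSG00000029761, chromosome 6 at 34598500-34775473, plus strand), lies along actin filaments with tropomyosin and restrains myosin. In AT-3, Cald1 measured 1945, 2027 and 2011 CPM with wild-type MRTFA, 1058, 1069.8 and 1095 CPM with Y238A, and 1209.6, 1266 and 1321 CPM with empty vector. In E0771, Cald1 measured 999, 991 and 947 CPM with wild-type MRTFA, 491, 438 and 465 CPM with Y238A, and 425, 471 and 434 CPM with empty vector. The 3 groups stood apart in AT-3, with Y238A lowest, whereas Y238A and empty vector overlapped in E0771. With wild-type MRTFA, Cald1 rose by 0.66 ± 0.05 in AT-3 cells (SE, adjusted p = 2.59e-10) and 1.14 ± 0.05 in E0771 cells (SE, adjusted p = 5.89e-13) on the log2 scale. The AT-3 effect was the smaller, by -0.49 ± 0.07 (SE, adjusted p = 6.73e-06), and its group started from the higher level: AT-3 exceeded E0771 by 1.51 ± 0.05 with empty vector (SE, adjusted p = 3.24e-16). Y238A lowered Cald1 in AT-3 by -0.24 ± 0.05 (SE, adjusted p = 4.83e-04) and changed it by 0.07 in E0771, with a 95% interval of -0.04 to 0.17 (adjusted p = 0.415). Caldesmon has a smooth muscle form and a shorter form found in other cells, both made from Cald1, and counts per gene cannot tell them apart.

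Smoothelin, encoded by Smtn (ENSMUSG00000020439, chromosome 11 at 3517523-3540612, minus strand), binds actin filaments and marks contractile smooth muscle. In AT-3, Smtn measured 157, 172 and 176 CPM with wild-type MRTFA, 89.0, 78.9 and 78.0 CPM with Y238A, and 130.0, 127 and 123 CPM with empty vector. In E0771, Smtn measured 220.1, 204 and 204 CPM with wild-type MRTFA, 122, 139 and 120.5 CPM with Y238A, and 119.9, 121 and 122 CPM with empty vector. The groups did not overlap in AT-3, and in E0771 wild-type MRTFA stood above both others. The change with wild-type MRTFA was 0.41 ± 0.06 in AT-3 (SE, adjusted p = 4.20e-06), the smallest of the 9 there, and 0.79 ± 0.06 in E0771 (SE, adjusted p = 3.04e-09). Without AT-3 wild-type replicate 2 or 3 the AT-3 value was 0.27 or 0.26, still called. The effects differed between lines by -0.38 ± 0.08, AT-3 minus E0771 (SE, adjusted p = 9.34e-04), and by -0.57 or -0.59 without those libraries. Y238A lowered Smtn by -0.63 ± 0.06 in AT-3 (SE, adjusted p = 4.08e-08), and in E0771 the change was 0.07 with a 95% interval of -0.06 to 0.20 (adjusted p = 0.512). On the opposite strand, Gm11946 shares exon sequence with Smtn, and the strand setting of the counting is not given in the sources used here. Gm11946 reached at most 2.93 CPM, and Gm11947, which also overlaps Smtn, had 0 counts in every library.

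Synaptopodin 2, encoded by Synpo2 (ENSMUSG00000050315, chromosome 3 at 123076519-123236149, minus strand), bundles actin and binds α-actinin and filamin at dense bodies and Z-discs. In AT-3, Synpo2 measured 109.8, 97.8 and 99.1 CPM with wild-type MRTFA, 3.08, 1.82 and 1.64 CPM with Y238A, and 4.12, 3.76 and 4.85 CPM with empty vector. In E0771, Synpo2 measured 21.3, 19.7 and 19.9 CPM with wild-type MRTFA, 4.21, 3.02 and 4.44 CPM with Y238A, and 6.83, 6.27 and 7.08 CPM with empty vector. The order wild type, empty vector, Y238A held in both lines with no overlap between groups. Wild-type MRTFA raised Synpo2 24.1-fold in AT-3, a log2 fold change of 4.59 ± 0.18 (SE, adjusted p = 6.18e-13), and 3.01-fold in E0771, a log2 fold change of 1.59 ± 0.16 (SE, adjusted p = 1.24e-06). The effect was larger in AT-3 by 3.00 ± 0.23 on the log2 scale (SE, adjusted p = 1.56e-08). Y238A lowered Synpo2, with a log2 fold change of -0.96 ± 0.19 in AT-3 (SE, adjusted p = 4.89e-04) and of -0.79 ± 0.17 in E0771 (SE, adjusted p = 0.00641), and Synpo2 was the one gene of the 9 called lower with Y238A in both lines. The difference between those effects was -0.17 with a 95% interval of -0.72 to 0.39 (adjusted p = 0.717). Synpo2 with empty vector was lower in AT-3 than in E0771, by -0.67 ± 0.17 (SE, adjusted p = 0.00221).

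Nexilin, encoded by Nexn (ENSMUSG00000039103, chromosome 3 at 152236982-152266350, minus strand), binds actin filaments at Z-discs and cell adhesions. In AT-3, Nexn measured 205, 226 and 214 CPM with wild-type MRTFA, 12.2, 10.4 and 9.27 CPM with Y238A, and 49.7, 46.9 and 46.9 CPM with empty vector. In E0771, Nexn measured 196, 211 and 192 CPM with wild-type MRTFA, 71.5, 59.5 and 72.6 CPM with Y238A, and 73.7, 80.3 and 74.8 CPM with empty vector. Wild-type levels were alike in the lines, and the AT-3 Y238A libraries lay far below every other group. The rise of Nexn with wild-type MRTFA was 2.17 ± 0.08 for AT-3 (SE, adjusted p = 2.04e-14) and 1.39 ± 0.08 for E0771 (SE, adjusted p = 9.40e-11) on the log2 scale. Y238A lowered it 4.51-fold in AT-3, a log2 fold change of -2.17 ± 0.09 (SE, adjusted p = 2.30e-13), which was the largest fall among the 9 genes and the 1.79 percentile of the log2 fold changes of all genes tested. In E0771 all Y238A libraries were also below the empty vector libraries, but the change of -0.17, with a 95% interval of -0.34 to 0.01, was not called (adjusted p = 0.191). The Y238A effect differed between lines by -2.00 ± 0.12 (SE, adjusted p = 3.52e-10), the wild-type effect by 0.78 ± 0.11 (SE, adjusted p = 1.04e-05), and the empty vector level by -0.67 ± 0.08 (SE, adjusted p = 2.86e-07), each AT-3 minus E0771.

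Palladin, encoded by Palld (ENSMUSG00000058056, chromosome 8 at 61511433-61902690, minus strand), is a scaffold of stress fibres that binds α-actinin. In AT-3, Palld measured 1153, 1131 and 1058 CPM with wild-type MRTFA, 250.4, 243 and 250.1 CPM with Y238A, and 215, 211 and 212 CPM with empty vector. In E0771, Palld measured 600.1, 546 and 551 CPM with wild-type MRTFA, 86.4, 62.8 and 80.3 CPM with Y238A, and 66.6, 70.1 and 66.1 CPM with empty vector. Wild-type libraries were far above the rest in both lines, and Y238A libraries overlapped empty vector in E0771. Palld was a gene with a larger wild-type effect in E0771: 2.39 ± 0.08 in AT-3 (SE, adjusted p = 5.61e-15) and 3.06 ± 0.08 in E0771 (SE, adjusted p = 3.23e-15), a difference of -0.68 ± 0.11 (SE, adjusted p = 4.06e-05). Its empty vector level was higher in AT-3, by 1.65 ± 0.08 (SE, adjusted p = 4.65e-13). With Y238A the change was 0.22 ± 0.08 in AT-3 (SE, adjusted p = 0.0262). That call was lost without any 1 of 6 libraries (AT-3 empty vector replicate 1, 2 or 3, AT-3 Y238A replicate 1 or 3, or AT-3 wild-type replicate 2), at adjusted p between 0.0522 and 0.0685. In E0771 the Y238A change was 0.18 ± 0.08 (SE, adjusted p = 0.151), and it was 0.30 (adjusted p = 2.10e-04) without Y238A replicate 2, the library with the lowest Palld.

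Desmin, encoded by Des (ENSMUSG00000026208, chromosome 1 at 75360329-75368579, plus strand), is the intermediate filament protein of muscle cells. In AT-3, Des measured 3.16, 2.77 and 2.92 CPM with wild-type MRTFA, 0.0596, 0.140 and 0.0629 CPM with Y238A, and 0.0925, 0.105 and 0.0248 CPM with empty vector. In E0771, Des measured 4.95, 4.91 and 5.43 CPM with wild-type MRTFA, 3.96, 2.10 and 3.80 CPM with Y238A, and 2.69, 2.19 and 2.08 CPM with empty vector. The low AT-3 groups rested on 6, 14 and 6 counts with Y238A and on 8, 10 and 2 counts with empty vector, so Des was barely detected there, while E0771 made it with empty vector alone. AT-3 was lower than E0771 by -4.91 ± 0.36 on the log2 scale with empty vector (SE, adjusted p = 1.02e-10). Wild-type MRTFA raised Des 38.2-fold in AT-3, a log2 fold change of 5.25 ± 0.36 (SE, adjusted p = 5.32e-11), and 2.19-fold in E0771, a log2 fold change of 1.13 ± 0.24 (SE, adjusted p = 0.00133). The AT-3 effect was larger by 4.12 ± 0.44 (SE, adjusted p = 1.73e-07), yet the level reached was still lower in AT-3, at 2.95 CPM on average against 5.10 CPM in E0771. Y238A gave 0.20 with a 95% interval of -0.94 to 1.35 in AT-3 (adjusted p = 0.808) and 0.50 with an interval of -0.02 to 1.02 in E0771 (adjusted p = 0.191). Without E0771 Y238A replicate 2, the lowest of the 3, the E0771 change was 0.74 (adjusted p = 0.0278). For wild type against Y238A in E0771, Des stood at 0.63 ± 0.23 (SE, adjusted p = 0.0552), and DESeq2 called it (adjusted p = 0.0232). It was also called without any 1 of E0771 Y238A replicate 1 or 3, AT-3 Y238A replicate 2 or AT-3 empty vector replicate 3, at adjusted p between 0.0402 and 0.0457. Gm15179, which overlaps Des on the other strand, reached at most 0.115 CPM.

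Synemin, encoded by Synm (ENSMUSG00000030554, chromosome 7 at 67730160-67759742, minus strand), is an intermediate filament protein that assembles with desmin or vimentin and ties the filaments to membrane complexes. In AT-3, Synm measured 51.9, 34.0 and 34.1 CPM with wild-type MRTFA, 1.63, 0.580 and 0.818 CPM with Y238A, and 0.116, 0.169 and 0.347 CPM with empty vector. In E0771, Synm measured 27.4, 23.3 and 23.6 CPM with wild-type MRTFA, 16.8, 12.7 and 15.1 CPM with Y238A, and 10.3, 9.56 and 10.8 CPM with empty vector. The order wild type, Y238A, empty vector held in both lines with no overlap between the groups. AT-3 wild-type replicate 1, the highest for Synm, also had the most of the MRTFA construct, with 7080.4 CPM against 4834 and 4385 CPM in replicates 2 and 3. Within its group that library was also the highest for Synpo2, Des, Palld and Svil, but the lowest for Lmod1, Cald1, Smtn and Nexn. The part of construct level in these values was not tested. Wild-type MRTFA raised Synm 193-fold in AT-3, a log2 fold change of 7.59 ± 0.37 (SE, adjusted p = 8.97e-11), and 2.42-fold in E0771, a log2 fold change of 1.27 ± 0.24 (SE, adjusted p = 0.00113). The difference of 6.32 ± 0.45 was the largest of the 9 (SE, adjusted p = 2.68e-08), and with empty vector AT-3 was lower by -5.62 ± 0.38 (SE, adjusted p = 2.45e-09).

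Y238A raised Synm in AT-3 by 2.28 ± 0.47 on the log2 scale (SE, adjusted p = 9.77e-04), and the value without the 4 libraries was 1.75 and still called. In E0771 the Synm change with Y238A was 0.54 ± 0.24 (SE, adjusted p = 0.169). It was called when E0771 was fitted alone (adjusted p = 0.00724). The difference between lines of 1.75 ± 0.54 (SE, adjusted p = 0.0268) was not called without the 4 libraries, at 1.35 (adjusted p = 0.0524), and also lost its call without AT-3 empty vector replicate 1 or 2, AT-3 Y238A replicate 1 or E0771 Y238A replicate 2, at values from 1.21 to 1.66. Wild-type MRTFA against Y238A gave 5.30 ± 0.30 in AT-3 (SE, adjusted p = 4.98e-10) and 0.73 ± 0.23 in E0771 (SE, adjusted p = 0.0319). The Synm call in E0771 was lost with DESeq2 (adjusted p = 0.0735) and without any 1 of 5 libraries, namely E0771 wild-type replicate 1, 2 or 3 and E0771 Y238A replicate 2 or 3. The exons of Ttc23 on the opposite strand overlap those of Synm, and Ttc23 too was lower in AT-3, with means of 0.971, 0.591 and 0.557 CPM with wild-type MRTFA, Y238A and empty vector in AT-3 against 8.06, 8.47 and 8.29 CPM in E0771. The part of shared reads in the Synm values was not tested.

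Supervillin, encoded by Svil (ENSMUSG00000024236, chromosome 18, plus strand), is a villin and gelsolin relative that links actin filaments and myosin II to the cell membrane. In AT-3, Svil measured 87.9, 77.2 and 73.2 CPM with wild-type MRTFA, 62.4, 61.6 and 64.9 CPM with Y238A, and 55.3, 53.1 and 55.2 CPM with empty vector. In E0771, Svil measured 79.5, 75.2 and 73.4 CPM with wild-type MRTFA, 59.9, 63.2 and 55.2 CPM with Y238A, and 53.5, 50.9 and 50.2 CPM with empty vector. The lines gave nearly the same picture, and in each the 3 groups did not overlap. The wild-type effect was 0.54 ± 0.06 in AT-3 (SE, adjusted p = 1.40e-07) and 0.56 ± 0.06 in E0771 (SE, adjusted p = 6.65e-07), with a difference of -0.02 and a 95% interval of -0.21 to 0.17 (adjusted p = 0.911). Y238A raised Svil, with a log2 fold change of 0.21 ± 0.06 in AT-3 (SE, adjusted p = 0.00963) and of 0.21 ± 0.06 in E0771 (SE, adjusted p = 0.0346), which made it the one gene of the 9 called higher with Y238A in both lines. The E0771 call was lost without the 4 libraries (adjusted p = 0.245) and without any 1 of AT-3 empty vector replicate 1, E0771 empty vector replicate 2 or 3 and E0771 Y238A replicate 1 or 2, at log2 fold changes between 0.16 and 0.20. The log2 difference between wild type and Y238A was 0.34 ± 0.06 in AT-3 (SE, adjusted p = 6.96e-05), or 0.16 with library totals in place of TMM (adjusted p = 0.0289), and that in E0771 was 0.36 ± 0.06 (SE, adjusted p = 1.56e-04).

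With wild-type MRTFA the effects differed between lines in 7 of the 9 genes. They were larger in AT-3 for Synm, Des, Synpo2 and Nexn, where 24.0% of all genes had a larger effect in AT-3, and smaller for Palld, Cald1 and Smtn, where 23.3% had a smaller one. For Y238A, 1 gene (Synm) had the higher effect in AT-3, where 13.6% of all genes did, and 3 (Nexn, Smtn and Cald1) had the lower one, where 12.2% did. With empty vector, AT-3 had higher Cald1 and Palld, 2 of 9 where 36.8% of all genes were called higher, and lower Synm, Des, Nexn and Synpo2, 4 of 9 where 35.2% were called lower. The differences of Lmod1 (0.44, adjusted p = 0.599), Smtn (0.06, adjusted p = 0.355) and Svil (0.08, adjusted p = 0.243) were not called, though Svil was, at 0.14, without AT-3 wild-type replicate 3 (adjusted p = 0.0385). The 4 genes lower in AT-3 with empty vector were the 4 with the larger wild-type effect there, and Cald1 and Palld, higher in AT-3 with empty vector, had the smaller one. These comparisons share the empty vector libraries, so the 2 sets of values are not independent. The construct was also more abundant in AT-3, and its part in the differences was not tested.

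Levels were compared between genes per kilobase of exon, on the mean CPM per kilobase. The length was that of all annotated exons of a gene together, from 3.75 kb for Des to 13.1 kb for Synpo2. It can exceed the length of the transcripts present, which was not measured. The order of genes and the sums depend on it, and the spreads given are between libraries only. Cald1 was the highest of the 9 genes in all 6 groups, from 36.8 CPM per kilobase in E0771 with empty vector to 166 in AT-3 wild-type libraries. There Lmod1 came next at 113 ± 1.22, ahead of Palld at 108 ± 4.82 CPM per kilobase (SD, n = 3 each), and these did not differ beyond their spread. Nexn at 56.2, Smtn at 38.4, Synpo2 at 7.81, Svil at 7.42, Synm at 5.04 and Des at 0.785 followed, of which the neighbours Synpo2 and Svil lay within their spread. In AT-3, Lmod1 stood at 0.637 CPM per kilobase with Y238A, number 6 of 9, and at 0.304 with empty vector, number 7 of 9, within the spread of its neighbour Synpo2 in both. In E0771 with wild-type MRTFA, Palld at 54.9, Nexn at 52.2 and Smtn at 47.8 CPM per kilobase followed Cald1 and overlapped as neighbours, and Lmod1 was number 5 at 31.4. In E0771, Lmod1 had the lowest mean of the 9 with empty vector, at 0.224, and with Y238A its mean of 0.228 did not differ beyond its spread from the 0.297 of Synpo2. Summed over the 9 genes, the level was 502 CPM per kilobase with wild-type MRTFA, 142 with Y238A and 173 with empty vector in AT-3, and 281, 102 and 98.4 in the same groups of E0771.

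**Figure D4:**
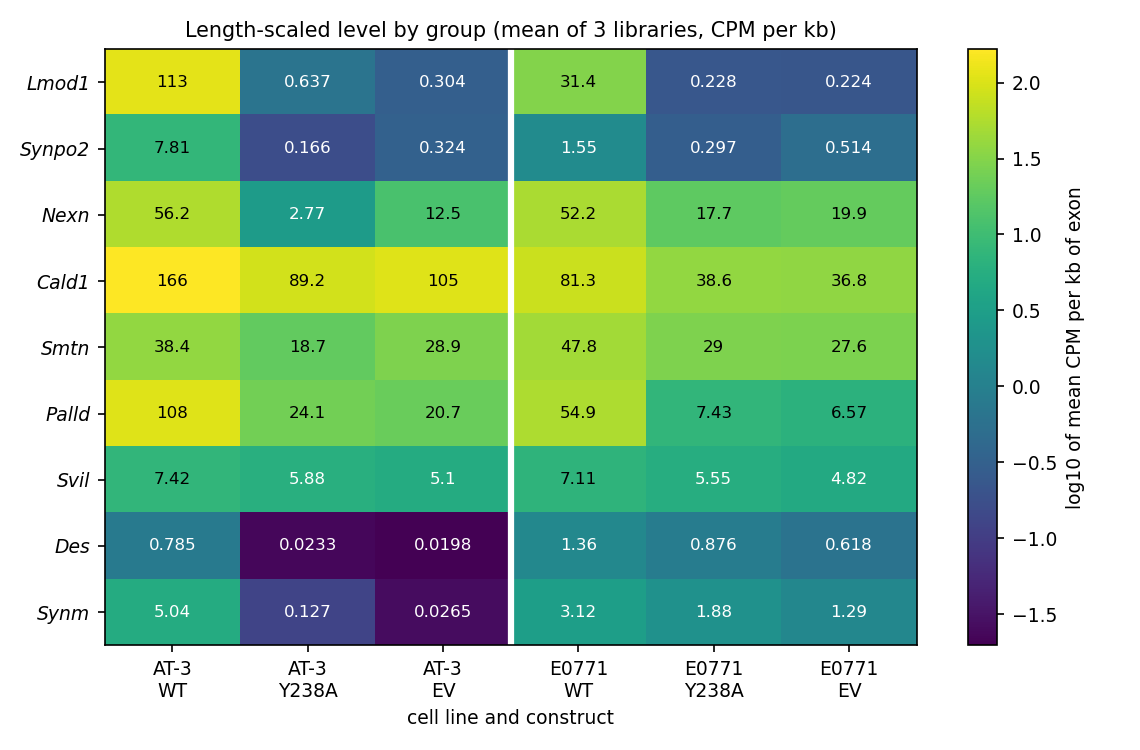
Mean of 3 libraries in CPM per kilobase of exon for each gene (rows) and group (columns), coloured by its log10 and printed in each cell. Cald1 is brightest in every column, at 166 in AT-3 wild type, and Lmod1 and Synm change colour most between the wild-type and empty vector columns of AT-3.

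Relatives of the 9 genes did not all move with them. Beside each list count stand the shares over all genes given above, with 32.2% of genes called lower by wild-type MRTFA in AT-3 and 13.3% in E0771. The lists too were chosen with earlier results of these data known, so the shares give scale only. Of 5 tested tropomodulin and leiomodin relatives, wild-type MRTFA raised 3 and lowered 1 in AT-3, and raised 1 and lowered 1 in E0771. Lmod3, the leiomodin of skeletal muscle, measured 26.8, 18.5 and 19.6 CPM with wild-type MRTFA in AT-3, 0.149, 0.0800 and 0.0629 CPM with Y238A and 0, 0.0211 and 0 CPM with empty vector, and at most 0.143 CPM in E0771. Tmod3, a tropomodulin that caps filaments in many cell types, was lower with wild-type MRTFA, at log2 fold changes of -0.46 ± 0.05 in AT-3 and -0.18 ± 0.05 in E0771 (SE, adjusted p = 3.41e-08 and 0.00768). Tmod1, the tropomodulin of striated muscle and red cells, averaged 3.58 CPM with wild-type MRTFA and 0.204 CPM with empty vector in AT-3, and 4.28 and 2.21 CPM in E0771 (adjusted p = 5.76e-08 and 0.0465). Tmod4 stayed under 0.3 CPM in every group mean and was called higher in AT-3 (1.45 ± 0.63, SE, adjusted p = 0.0463). Of 4 tested smoothelin, synaptopodin and palladin relatives, 2 were higher and 1 lower in AT-3 and 1 was higher and 1 lower in E0771. The lower one was Synpo, the synaptopodin of kidney podocytes and neurons. In AT-3, Synpo measured 8.95, 7.44 and 8.41 CPM with wild-type MRTFA, 192, 193 and 189.7 CPM with Y238A, and 127, 117 and 112 CPM with empty vector. Synpo thus ran against Synpo2 under both constructs: its log2 fold change was -3.84 ± 0.12 with wild-type MRTFA (SE, adjusted p = 2.94e-14) and 0.69 ± 0.10 with Y238A (SE, adjusted p = 3.79e-05). In E0771 the wild-type change of Synpo was -0.42 ± 0.11 (SE, adjusted p = 0.00760). The genes called higher in AT-3 were Mypn, encoding the palladin relative myopalladin, with 1.42 CPM against 0.0325 CPM with empty vector (adjusted p = 1.50e-04), and Smtnl2, a smoothelin-like gene, with 1.36 CPM against 0.574 CPM (adjusted p = 5.13e-04). Synpo2l, a synaptopodin 2 relative of striated muscle, was called in E0771 (0.95 ± 0.33, SE, adjusted p = 0.0407) and not in AT-3 (0.63 ± 0.29, SE, adjusted p = 0.0655).

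Among 7 tested intermediate filament genes of types III and IV beside Des and Synm, wild-type MRTFA raised 5 and lowered 2 in AT-3, and raised 1 and lowered 1 in E0771. Vim, which encodes vimentin, the type III filament of mesenchymal cells, measured 638, 835 and 831 CPM with wild-type MRTFA, 2935, 2872 and 2908 CPM with Y238A and 2639.7, 2616 and 2670.5 CPM with empty vector in AT-3. Vimentin RNA was thus lower in the AT-3 wild-type libraries, where desmin and synemin RNA were higher, with a Vim log2 fold change of -1.78 ± 0.07 (SE, adjusted p = 7.09e-15). In E0771, Vim fell by 0.27 with an SE of 0.07 on the log2 scale (adjusted p = 0.00436). Gfap, which encodes the type III filament of astrocytes, averaged 10.6 CPM with wild-type MRTFA and 0.0774 CPM with empty vector in AT-3, a log2 fold change of 7.10 ± 0.42 (SE, adjusted p = 5.79e-12). In E0771 it was under 1 CPM in each group and changed by 1.19 ± 0.40 (SE, adjusted p = 0.0347). Prph, which encodes peripherin of neurons, was lower with wild-type MRTFA in AT-3, at -2.31 ± 0.14 (SE, adjusted p = 9.95e-12). Nes, which encodes nestin, was higher in AT-3 by 0.44 ± 0.04 (SE, adjusted p = 7.20e-09), and the other 3 that rose were the neuronal filament genes Ina, Nefm and Nefh. Ina averaged 0.464 CPM with wild-type MRTFA and had no count with empty vector, and Nefm averaged 0.633 and 0.0153 CPM. Of 9 partners that anchor desmin and synemin, wild-type MRTFA raised 7 and lowered 1 in AT-3, and raised 6 and lowered 0 in E0771. Dtna, which encodes α-dystrobrevin, a binding partner of synemin, rose with it in both lines, 4.51 ± 0.16 in AT-3 and 1.73 ± 0.15 in E0771 on the log2 scale (SE, adjusted p = 4.59e-14 and 6.22e-08). Plec, which encodes the cytolinker plectin, rose by 1.39 ± 0.07 in AT-3 and 0.30 ± 0.07 in E0771 (SE, adjusted p = 5.01e-13 and 0.00277). Utrn, which encodes utrophin, rose by 1.27 ± 0.10 and 0.41 ± 0.10 in the lines in that order (SE, adjusted p = 4.45e-09 and 0.00481). Dtnb, the β-dystrobrevin gene, rose by 0.80 ± 0.06 in AT-3 (SE, adjusted p = 2.73e-10) and was not called in E0771, at -0.03 ± 0.06 (SE, adjusted p = 0.771).

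Of 7 gelsolin and villin relatives of Svil, wild-type MRTFA raised 4 and lowered 1 in AT-3, and raised 3 and lowered 0 in E0771. Gsn encodes gelsolin, which severs actin filaments. In AT-3, Gsn measured 1102, 1037 and 996 CPM with wild-type MRTFA, 571, 566 and 562 CPM with Y238A, and 241, 256 and 259.7 CPM with empty vector. Gsn thus shared with Svil the order wild type, Y238A, empty vector, with log2 fold changes of 2.05 ± 0.06 for wild-type MRTFA and 1.17 ± 0.06 for Y238A (SE, adjusted p = 2.45e-16 and 5.73e-12). In E0771 the wild-type change of Gsn was 0.37 ± 0.06 (SE, adjusted p = 1.20e-04) and the Y238A change 0.10 ± 0.06 (SE, adjusted p = 0.319). Capg, a capping protein, was lower with wild-type MRTFA in AT-3 and higher in E0771, with log2 fold changes of -0.75 ± 0.04 and 0.22 ± 0.04 (SE, adjusted p = 1.80e-12 and 3.97e-04). Scin, which encodes the severing protein scinderin, averaged 2.95 CPM against 0.425 CPM with empty vector in AT-3 and 0.267 CPM against 0.00642 CPM in E0771 (adjusted p = 1.11e-05 and 9.12e-05). Vil1, the villin gene, averaged 0.462 CPM against 0.125 CPM in AT-3 (adjusted p = 0.0224).

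Of 11 scaffold genes of the α-actinin, zyxin and filamin kind, whose proteins bind synaptopodin 2 and palladin, wild-type MRTFA raised 7 and lowered 2 in AT-3, and raised 8 and lowered 1 in E0771. Flna, which encodes filamin A, rose by 1.31 ± 0.05 in AT-3 and 1.18 ± 0.05 in E0771 on the log2 scale (SE, adjusted p = 4.22e-15 and 2.80e-13). The α-actinin genes Actn1 (1.04 ± 0.04 in AT-3 and 1.40 ± 0.04 in E0771) and Actn4 (0.92 ± 0.04 and 0.91 ± 0.04) and the muscle filamin gene Flnc (1.66 ± 0.07 and 0.80 ± 0.07) rose in both lines (SE). Y238A lowered 8 of the 11 and raised 2 in AT-3, and lowered 2 and raised 0 in E0771. Zyx, which encodes zyxin of focal adhesions, differed in its call with wild-type MRTFA: -0.01 ± 0.06 in AT-3 (SE, adjusted p = 0.857) and 1.16 ± 0.06 in E0771 (SE, adjusted p = 1.87e-11). The list of 11 contractile genes of smooth muscle also holds Myocd, which encodes the coactivator myocardin. It was called higher with wild-type MRTFA in AT-3, at a log2 fold change of 9.33. Of these 11 genes, wild-type MRTFA raised 11 in AT-3 and 10 in E0771. Among them the tropomyosin genes Tpm2 (3.07 and 2.33) and Tpm1 (1.46 and 1.62), the actin gene Acta2 (3.83 and 4.66) and the myosin light chain kinase gene Mylk (8.67 and 4.80) rose in both lines, AT-3 value before E0771 value on the log2 scale. Y238A raised 2 and lowered 7 of them in AT-3, and raised 0 and lowered 1 in E0771. The median log2 fold change of the 11 with Y238A in AT-3 was -0.48, beside 0.01 over all genes. For the 9 cytoskeletal genes it was 0.20, which is the value of Des, with a 95% interval of -0.94 to 1.35. Of those 9, 3 were called higher and 4 lower. Srf itself averaged 584 CPM with wild-type MRTFA, 92.9 CPM with Y238A and 186 CPM with empty vector in AT-3, and 376, 136 and 162 CPM in the same groups of E0771.

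**Figure D5:**
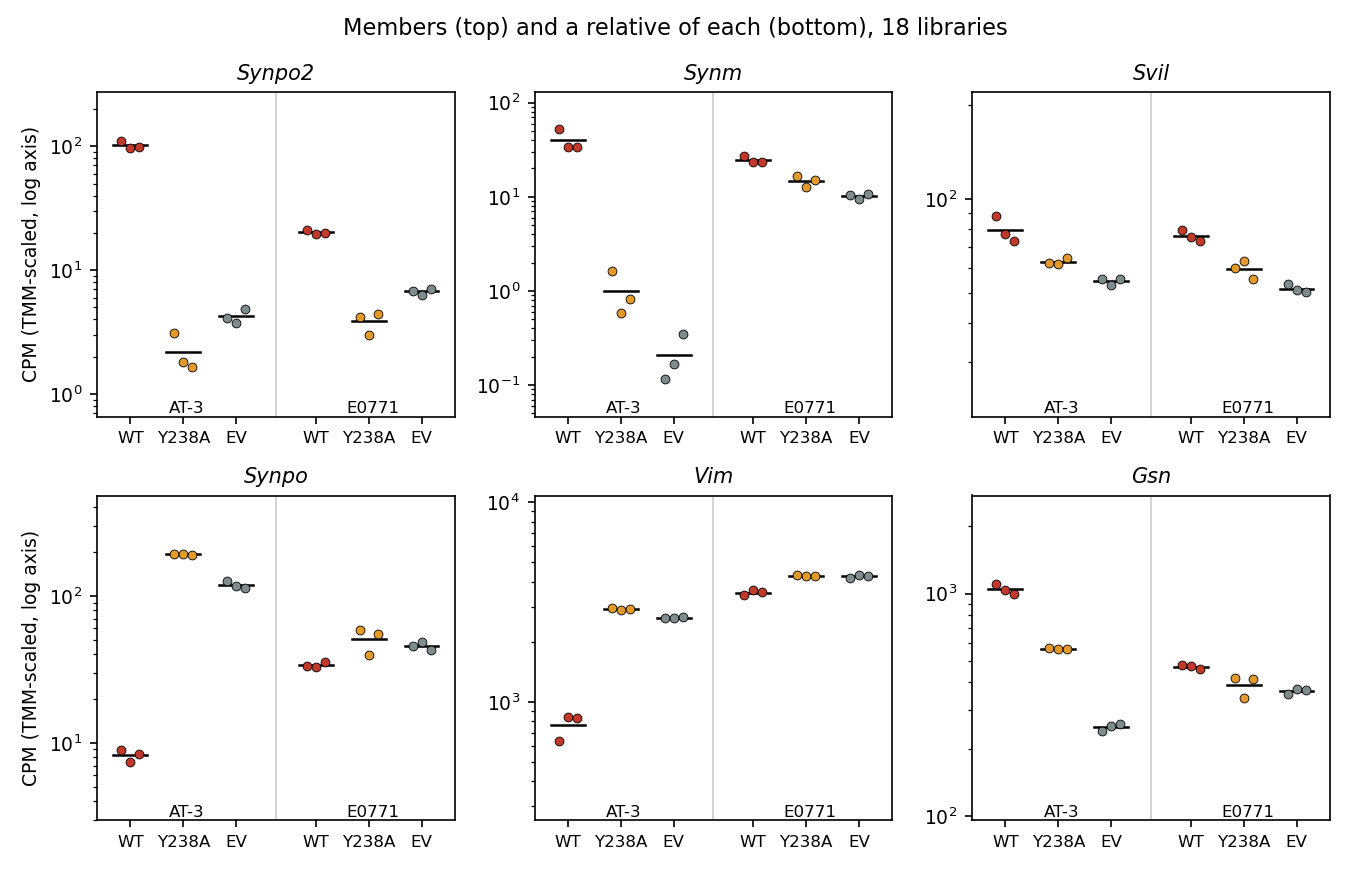
Levels of Synpo2, Synm and Svil (top row) and of a relative of each, Synpo, Vim and Gsn (bottom row), in 18 libraries in CPM on a log axis, with bars for the mean of 3 libraries and groups running from wild-type MRTFA (WT) through Y238A to empty vector (EV) in each line. In AT-3 the wild-type points of Synpo, at 7.44 to 8.95 CPM, and of Vim, at 638 to 835 CPM, lie below the empty vector points, while those of Gsn lie above them.

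Markers of other cell types were read beside these values. The 4 fibroblast markers, mainly Pdgfra and Pdgfrb, summed to between 80.5 and 97.7 CPM with wild-type MRTFA, 376 and 421 CPM with Y238A and 499 and 542 CPM with empty vector in AT-3, and in E0771 to between 52.2 and 63.7, 64.5 and 93.6, and 85.0 and 102 CPM in the same groups. They were thus lowest where the 9 genes were highest, and Lum was at 0 in 4 of the 6 groups. The 5 leukocyte markers summed to between 21.7 and 21.9 CPM with wild-type MRTFA, 71.4 and 76.8 CPM with Y238A and 5.21 and 5.98 CPM with empty vector in AT-3. Cd68 averaged 20.9, 72.0 and 3.43 CPM and Lyz2 averaged 0.558, 1.55 and 2.04 CPM in these groups, while the T cell marker Cd3e was at 0 in the AT-3 Y238A and empty vector libraries. The 4 endothelial markers summed to at most 3.73 CPM in any library. Of the 4 genes listed as cardiac regulators, Nppa encodes a secreted peptide. In AT-3 the 4 summed to between 138 and 144 CPM with wild-type MRTFA, 37.1 and 40.04 CPM with Y238A and 43.1 and 46.6 CPM with empty vector. In E0771 they summed to at most 1.51 CPM. Nppa, Nkx2-5 and Gata4 were called higher with wild-type MRTFA in AT-3, where 36.4% of all genes were, at log2 fold changes of 7.29, 2.01 and 0.67. Of the 3 tested in E0771, 2 were called higher, where 11.2% of all genes were, and 1 lower, where 13.3% were. The part of these transcripts in the levels of the 9 genes was not tested.

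Across the 18 libraries the 9 genes did not follow a common course. Pearson's r of log2 CPM over their 36 pairs ran from -0.29 for Cald1 with Des to 0.94 for Smtn with Nexn, and it was 0.93 for Des with Synm. The libraries share groups and lines, so these values describe the design as much as the genes. The most alike genes were sought among others with at least 1 CPM on average, leaving out model gene names and the construct entry. Those most like Lmod1 were Ccna1 (r = 0.99) and Tnmd (r = 0.99). Palld was most like Lncenc1 (r = 0.99) and Csrp1 (r = 0.98), and Synpo2 most like Ppp1r12a (r = 0.99) and Mapk14 (r = 0.99). Cald1 was nearest to Anxa3 and Tmsb4x (r = 0.99 each), Nexn to Bok (r = 0.99) and Gcat (r = 0.98), and Smtn to Lcp1 and Pfn1 (r = 0.95 each). Des was nearest to Cbx7 and Tuba4a (r = 0.98 each), Synm to Whamm (r = 0.99) and Serpinb6b (r = 0.98), and Svil to Doxl2 (r = 0.95) and Actc1 (r = 0.94).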

How the data were processed

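RNA was sequenced from 18 libraries in 6 groups of 3. Per the labels' protocols, RNA came from RNeasy columns and libraries from the NuGen Universal Plus mRNA kit. Per the submitters' processing notes, reads were aligned with STAR and counted with featureCounts on GRCm38, and versions, annotation release and strand setting are not given in the sources used here. The deposited values are raw counts per gene made by the authors. Between 61.9% and 64.6% of nonzero counts in a library were even, so both mates of a pair may have been counted. Depth was 81265466 to 115260128 counts per library.

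Counts were analysed here in R 4.3.3 with edgeR 4.0.16. The filterByExpr filter (minimum count 10, minimum total 15) kept 17841 genes, which were TMM-scaled and fitted with 6 group means and 12 residual degrees of freedom by the robust quasi-likelihood F test, with Benjamini-Hochberg adjustment and a threshold of 0.05. Wild-type and Y238A MRTFA were compared with empty vector and with each other in each line, and between lines as AT-3 minus E0771. An SE is the log2 fold change divided by the square root of F. A 95% interval is the log2 fold change ± that SE times the t quantile at 12 degrees of freedom. The test itself also uses prior degrees of freedom, so an interval can be wider than the test implies and include 0 at an unadjusted p under 0.05. Exon lengths and overlaps came from GENCODE M21. Deviations from group means were correlated between libraries of a line. Same-numbered libraries gave r from 0.00011 to 0.084 in AT-3 and from -0.35 to 0.64 in E0771. Libraries of other numbers gave -0.072 to 0.025 in AT-3 and -0.54 to 0.51 in E0771. Same-numbered libraries thus did not deviate together throughout, and numbers were not used as pairs. Alternatives were DESeq2 1.42.0, other scalings and filters, each line alone, a replicate block, each library left out, and 4 libraries left out. The 9 genes and all lists were chosen with earlier results of these data known. All 9 genes are named in every comparison, and up to 4 genes of a list by smallest p in AT-3 with wild-type MRTFA. Some of the list genes whose call differed between lines are named too, but not all. Ina, Nefm and Nefh were named after their values were seen. Likeness was Pearson's r of log2 CPM with a prior count of 2 over genes with at least 1 CPM on average. Model names such as Gm and Rik, entries with an ID alone and the construct entry were left out. Entries were matched to symbols by Ensembl ID.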

Additional observations from a re-analysis of the deposited data

Results flagged for a closer look

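The effect of wild-type MRTFA against empty vector differed between the lines, by the test of the difference itself, in 7 of the 9 genes. Such differences were common, with 24.0% of all genes tested called for a larger effect in AT-3 and 23.3% for a smaller one. The AT-3 effect exceeded the E0771 effect by 6.32 for Synm (adjusted p = 2.68e-08), 4.12 for Des (adjusted p = 1.73e-07), 3.00 for Synpo2 (adjusted p = 1.56e-08) and 0.78 for Nexn (adjusted p = 1.04e-05) on the log2 scale. It fell short of the E0771 effect for Palld, with a difference of -0.68 (adjusted p = 4.06e-05), for Cald1, with -0.49 (adjusted p = 6.73e-06), and for Smtn, with -0.38 (adjusted p = 9.34e-04). These 7 calls were made in each alternative run.

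The effect of Y238A MRTFA differed between the lines in 4 genes. Of all genes tested, 13.6% were called for a higher effect in AT-3 and 12.2% for a lower one. The AT-3 effect was lower than the E0771 effect for Nexn, by -2.00 (adjusted p = 3.52e-10), for Smtn, by -0.70 (adjusted p = 3.56e-06), and for Cald1, by -0.30 (adjusted p = 0.00239). It was higher for Synm, by 1.75 (adjusted p = 0.0268), and the Synm call rested on low AT-3 levels and was lost without any 1 of 4 libraries, as given beside its values. Construct level differed between the lines in the same comparisons, with 5433 CPM in AT-3 and 761 CPM in E0771 for wild-type MRTFA and 2104 CPM in AT-3 and 320 CPM in E0771 for Y238A.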

How the results depend on the processing

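The counts of 9 genes higher with wild-type MRTFA were the same in both lines under each alternative run. Depth limited Des in AT-3 most, with 26 counts over the Y238A libraries and 20 counts over the empty vector libraries. The number of genes higher with Y238A in E0771, 1 as reported, was 2 with each line fitted alone, 2 with the replicate block, 0 without the 4 libraries, and between 0 and 2 with 1 library left out. The number with a higher Y238A effect in AT-3, 1 as reported, was 0 with no filter, 0 without the 4 libraries, and between 0 and 1 with 1 library left out. With the replicate block, Synm was called for Y238A in E0771 (adjusted p = 0.0358) and Des for wild type against Y238A there (adjusted p = 0.0430), and no other call of the 9 genes changed. Des in that comparison was also called with the stricter filter (adjusted p = 0.0417) and with E0771 alone (adjusted p = 0.0332). Synm there was not called with no filter (adjusted p = 0.0634).

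Values that changed sign were not called in the fit reported. Without the 4 libraries, Lmod1 with Y238A was -0.10 in AT-3 and -0.50 in E0771, and the Des line difference for Y238A was 0.12. The Svil line difference for Y238A was -0.023 with DESeq2, -0.023 with its size factors, -0.011 with library totals and -0.039 with the stricter filter, and Smtn with empty vector, AT-3 against E0771, was -0.016 with library totals. With 1 library left out, sign changes gave ranges of -0.10 to 1.54 for Lmod1 and -0.31 to 0.56 for Des (Y238A in AT-3), -0.58 to 0.37 for Lmod1 and -0.00076 to 0.10 for Smtn (Y238A in E0771), and -0.17 to 0.010 for the Svil line difference with wild-type MRTFA. For the line difference with Y238A they were -0.16 to 1.66 for Lmod1, -0.50 to 0.0086 for Synpo2, -0.81 to 0.055 for Des, -0.072 to 0.14 for Palld and -0.049 to 0.058 for Svil. The cause of these shifts was not tested. Over all genes in E0771, the 2364 genes lower with wild-type MRTFA became 1385 with the stricter filter, 1417 with the line alone and 1100 without the 4 libraries. They became 1308 without AT-3 wild-type replicate 2, 1366 without AT-3 wild-type replicate 3, 1487 without E0771 wild-type replicate 1 and 1509 without E0771 empty vector replicate 2. There the genes with Y238A, 965 higher and 1184 lower, became 510 and 333 without the 4 libraries, the 1184 became 548 without E0771 empty vector replicate 2 alone, and without the 4 libraries the 2326 lower with wild type than with Y238A became 1465.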
